A study of Mus musculus with 4 samples.

Results

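The Krüppel-like factors (KLFs) are transcription factors that bind GC-rich and CACCC sequences through a block of C2H2 zinc fingers at the C-terminus. In T lymphocytes Klf2 keeps resting cells quiescent and able to leave lymphoid organs, and signaling through the T cell receptor (TCR) is known to shut it off. Other members act as repressors (Klf3), in growth arrest (Klf4), as a target of TGF-β (Klf10) or as an activator of Ccl5 (Klf13). The present data cover 8 members, Klf2, Klf3, Klf4, Klf6, Klf7, Klf9, Klf10 and Klf13, chosen by gene name among the 37074 gene names on the array. The choice was made with earlier results of these data known, so counts over the members are descriptions only. The 8 members are read by 16 probes of 60 bases and lie on 8 different chromosomes.

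RNA was measured on 4 single-colour microarrays, 1 for each group, so that no difference below has a replicate check and no p-value is given. The groups were wild-type (WT) naive CD4+ T cells, Nr4a1/Nr4a2/Nr4a3 triple-knockout (Nr4a-TKO) naive CD4+ T cells, and each of them after 3 h in culture toward induced regulatory T (iTreg) cells. Naive cells (CD4+, CD25low, CD44low, Foxp3-) were sorted from spleen and lymph nodes of bone marrow chimeras 6 weeks after the transfer into Rag2-/- recipients irradiated at 8.5 Gy. Nr4a-TKO cells came from mixed chimeras that also carried WT marrow at 1:1, WT cells from chimeras given WT marrow only, so genotype and kind of chimera cannot be told apart. The mice were C57BL/6J of both sexes, 6 to 8 weeks old, and the knockout combined floxed Nr4a1 and Nr4a2 alleles with Nr4a3-/-. The driver of the deletion is not given in the sources used here. The iTreg culture had plate-coated anti-CD3 at 2 µg/ml, anti-CD28 at 0.5 µg/ml, anti-IFN-γ and anti-IL-4 at 1 µg/ml each, IL-2 at 10 ng/ml and TGF-β1 at 0.2 or 0.5 ng/ml, and which TGF-β1 dose was used for the arrays is not stated. The comparisons ask how the KLF genes differed after 3 h of culture in each genotype, and between the genotypes before and after it.

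Between 64.9% and 67.6% of the 56605 probes were well above background on each array, and no spot was saturated. Probes of all 7 T cell markers, Cd4 and Cd3e among them, were well above background on every array. Of the targeted genes, Nr4a1 had a signal of 126 in WT naive T and 299.6 in Nr4a-TKO naive T, then 3113 and 4192 at 3 h. Both Nr4a2 probes were also no lower on the arrays labelled Nr4a-TKO. Of the 3 Nr4a3 probes, a pair was 3.92-fold and 2.93-fold lower in the Nr4a-TKO array at 3 h, and the other, at 891 in WT and 989 in Nr4a-TKO, was not. Whether these probes lie in the deleted parts is not known here, so they check the labels only in part. B cell markers were 5 of 5 above background on every array, with summed signals from 538 to 821, and of the 4 NK cell markers 2 to 3 were, with summed signals from 34.5 to 70.0, Ncr1 on none of the arrays and Eomes on all of them. Of the 4 endothelial markers, Cdh5, Kdr and Tek were above background on none of the arrays, and Pecam1 was on all 4.

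Values below are either signals (the scanner software's background-subtracted brightness, comparable between arrays only roughly) or log2 levels, which are log2 signals minus the array's 75th percentile. A log2 difference compares the levels of 1 probe on 2 arrays. Its error from repeated spots was 0.06 (SD), and the scanner software's own error per probe gave about 0.20 for bright probes, so smaller differences were within the error of the measurement. Neither includes variation between mice or cultures. A probe that did not stand well above background on 1 array of a pair gave only a limit ("at least"). Each gene is given by its brightest probe (probe 1), and a gene is counted as changed when it differs by more than 2-fold. In bulk RNA, fewer cells of a type and less RNA per cell cannot be told apart.

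In WT cells, 6 of the 8 KLF members were more than 2-fold lower after 3 h of iTreg culture than in naive T (Klf2, Klf3, Klf4, Klf6, Klf7 and Klf13), and 2 were more than 2-fold higher (Klf9 and Klf10). Over all 26528 genes with a difference, 11.1% were lower and 9.96% were higher by that much. The median log2 difference was -2.13 over the members and -0.10 over all genes. In Nr4a-TKO cells, 5 members were more than 2-fold lower (all of the former but Klf7) and only Klf10 was higher, where 10.0% of 26917 genes were lower and 9.38% higher. There the median was -1.70 over the members and -0.05 over all genes. Some markers of other cell types were also lower after culture, and so were most T cell markers. Of the 7 T cell markers, 6 were below 0 in each genotype, with medians of -0.475 in WT and -0.69 in Nr4a-TKO. By brightest probe only Cd4 among them passed 2-fold, at -1.34 in Nr4a-TKO. Of the 4 naive T cell markers, 3 (Lef1, Tcf7 and Il7r) were more than 2-fold lower in each genotype. The medians of that list were -1.55 in WT and -1.63 in Nr4a-TKO. Of the 4 regulatory T cell markers, 1 was lower by that much in each genotype by brightest probe. It was Ikzf2 in WT (-1.055) and Ctla4 in Nr4a-TKO (-1.33). In WT, 2 of 5 B cell markers were more than 2-fold lower (Cd79b by -2.92 and Cd79a just past the limit), as were 3 of 7 measured myeloid markers (Cd14 and S100a8, both as limits, and S100a9 by -1.63), 1 of 3 NK markers (Eomes, -1.63), 1 of 4 erythroid markers (Gata1, -2.82), 1 of 4 memory T cell markers (S100a4, -3.17) and the 1 measured endothelial marker (Pecam1, -2.41), and none was more than 2-fold higher. In Nr4a-TKO these counts were 1, 1, 0, 1, 2 and 1, and the memory T cell marker Cd44 was 5.0-fold higher. The part of all these markers in the KLF values was not tested. Counting KLF probes, 11 of the 15 with a value were lower and 3 higher in WT, and 9 lower and 2 higher in Nr4a-TKO.

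**Figure D1:**
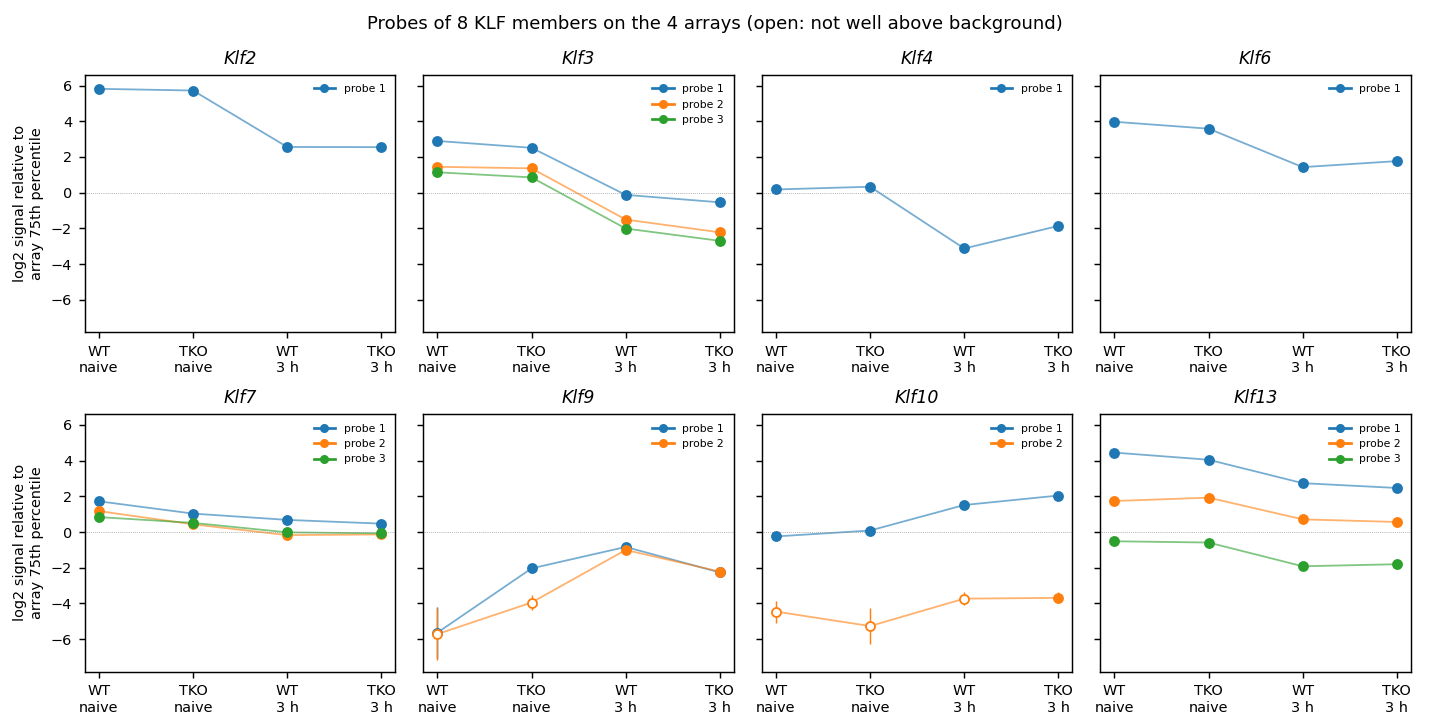
Log2 level (log2 signal minus the array's 75th percentile) of each of the 16 probes on the 4 arrays, 1 panel per gene, with 1 colour per probe; error bars are the scanner software's error, and open circles were not well above background. Klf2, Klf3, Klf4, Klf6 and Klf13 step down between both naive arrays and both 3 h arrays, Klf10 probe 1 steps up, and Klf9 rises only between the WT arrays with its brighter probe.

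Klf2, which sustains the expression of sphingosine-1-phosphate receptor 1 in resting T cells, was among the members with the largest decrease in culture. Its signal was 4729 (WT) and 4299 (Nr4a-TKO) in naive T, and 563 (WT) and 532 (Nr4a-TKO) at 3 h. Both naive arrays were far above both 3 h arrays, and the genotypes were nearly level at each stage. The log2 difference was -3.25 ± 0.20 (scanner error) in WT, a 9.54-fold lower level, and -3.17 ± 0.20 in Nr4a-TKO. Klf2 ranked 147 from the lowest of the 26528 genes in the WT comparison. The genotype differences of -0.10 in naive T and -0.01 at 3 h were within the error of the scanner.

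Klf3, which recruits the CtBP co-repressors, was lower by a similar factor. Its probe 1 read 626 (WT) and 466 (Nr4a-TKO) in naive T, and 87.8 (WT) and 62.5 (Nr4a-TKO) at 3 h. All 3 Klf3 probes had the same order of the 4 arrays, with WT naive T highest and Nr4a-TKO iTreg at 3 h lowest. In WT the probes gave log2 differences from -3.15 to -2.95, and in Nr4a-TKO from -3.58 to -3.05. At 3 h all 3 were lower in Nr4a-TKO than in WT, by -0.42, -0.72 and -0.69, the last 2 at over 2.5 times their scanner errors of 0.24 and 0.27 and none past 2-fold.

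The promoters of Klf2 and Klf3 are shown because these genes were lower to a like extent in both genotypes, and that of Klf9 because it was not. They are the 250 bases before the transcription start from RefSeq (GRCm38.p6), on the strand of the gene, with capitals at every match, on either strand, to the KLF motif CACCC, the GC box GGGCGG, the AP-1 motif TGANTCA or the forkhead motif TGTTTAC. Neighbouring or overlapping matches form 1 run of capitals. Klf2 lies at chr8:72318812-72319061 on the plus strand, Klf3 at chr5:64803271-64803520 on the plus strand and Klf9 at chr19:23140976-23141225 on the plus strand.
Klf2: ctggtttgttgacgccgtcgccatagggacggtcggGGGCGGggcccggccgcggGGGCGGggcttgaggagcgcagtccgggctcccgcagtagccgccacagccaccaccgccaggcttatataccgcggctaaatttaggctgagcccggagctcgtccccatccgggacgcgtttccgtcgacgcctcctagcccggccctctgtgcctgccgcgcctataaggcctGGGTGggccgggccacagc
Klf3: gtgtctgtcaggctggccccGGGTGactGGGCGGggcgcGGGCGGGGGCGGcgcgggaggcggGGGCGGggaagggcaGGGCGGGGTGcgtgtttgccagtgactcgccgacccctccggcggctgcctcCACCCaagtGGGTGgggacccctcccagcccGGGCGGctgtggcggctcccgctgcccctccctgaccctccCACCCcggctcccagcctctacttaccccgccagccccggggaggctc
Klf9: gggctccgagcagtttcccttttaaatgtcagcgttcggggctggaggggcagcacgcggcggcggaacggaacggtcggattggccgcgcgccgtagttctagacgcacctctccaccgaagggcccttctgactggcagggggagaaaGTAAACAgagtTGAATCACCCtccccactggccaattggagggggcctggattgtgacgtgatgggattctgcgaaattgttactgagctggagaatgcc

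Promoter sequences were found for 7 members, Klf10 being the one not found. In the window from 250 bases before to 50 after the start, CACCC was present in 5 of the 7 (57.5% of 32851 promoters) and GGGCGG in 6 of the 7 (35.7%). The Klf3 promoter held 6 GC boxes and 5 CACCC matches, and that of Klf2 held 2 and 1. The Klf9 promoter was the member promoter with no GC box, and it was also the one with an AP-1 match, which shares its last bases with a CACCC match, and with a forkhead match. These occurred in 7.81% and 3.65% of all promoters. None of the 7 held the Nr4a monomer site AAAGGTCA (1.51% of all promoters), the CRE TGACGTCA (1.79%) or the Egr site GCGTGGGCG (0.612%), and 1, Klf7, held the Ets core AGGAAG (35.4%). The 250 bases before the start were 59.2% to 78.4% G and C in the members, against a median of 52.4% over all promoters, and held 13 to 32 CpG, against a median of 6.

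Klf4 and Klf6 were lower after culture in both genotypes, but less so in Nr4a-TKO. Klf4, which holds lymphocytes in growth arrest, read 95.2 (WT) and 103 (Nr4a-TKO) in naive T, and 11.0 (WT) and 25.0 (Nr4a-TKO) at 3 h. The naive arrays were level, and the WT array at 3 h was the lowest of the 4 and near that array's floor of 6.72. The log2 difference between the stages was -3.30 ± 0.27 in WT, 9.87-fold, and -2.20 ± 0.22 in Nr4a-TKO, 4.58-fold. At 3 h Klf4 was thus 2.40-fold higher in Nr4a-TKO, a log2 difference of 1.26 ± 0.28. With a background correction that adds an offset of 50, which compresses dim probes, that difference was 0.32 and the WT change was -1.35. Of the 25325 genes with both changes, 6.38% had a larger absolute difference between the genotypes' changes than the 1.11 of Klf4.

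Klf6, a ubiquitous factor induced in many tissues by injury, read 1317 (WT) and 978 (Nr4a-TKO) in naive T, and 257 (WT) and 309 (Nr4a-TKO) at 3 h. WT was thus the higher genotype in naive T and the lower one at 3 h. The change with culture was -2.54 ± 0.20 in WT and -1.82 ± 0.20 in Nr4a-TKO, and the genotype differences were -0.39 and 0.34, each under 2 scanner errors. The changes differed by 0.72 between the genotypes, and 14.9% of genes had a larger absolute value.

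**Figure D2:**
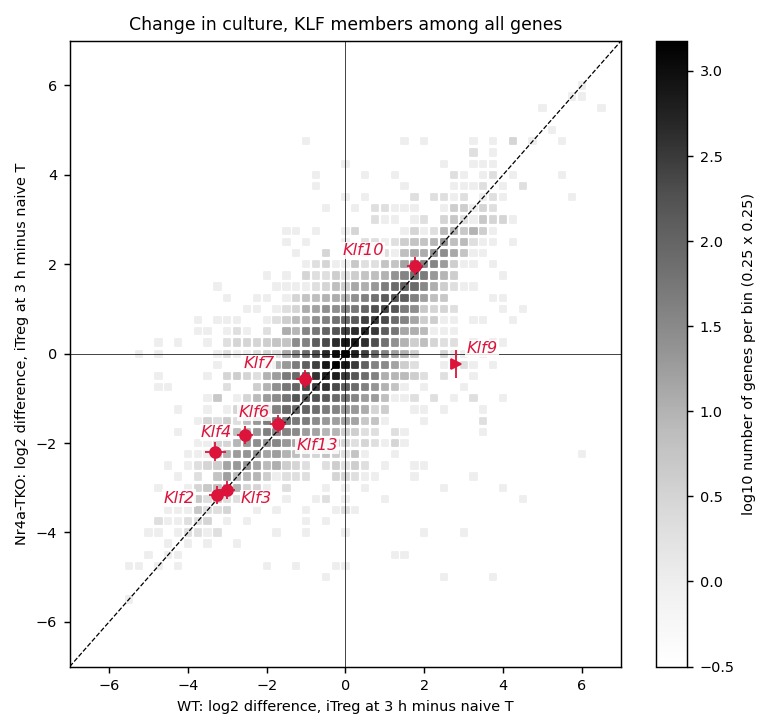
Log2 difference between iTreg at 3 h and naive T in WT (horizontal) and in Nr4a-TKO (vertical) for the 8 members (red, with scanner error) over the binned density of the 25325 genes with both values (grey); the dashed line marks equal change, and the triangle for Klf9 marks a lower limit in WT. Klf2, Klf3, Klf13 and Klf10 lie on or near the line, Klf4 and Klf6 above it, and Klf9 far below it.

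Klf7 and Klf13 had probes whose sequence holds part of the zinc finger region, and these are shown to say which part of the transcript was read. The sequences are as designed on the array, in the sense of the transcript, with positions on mm9, and capitals mark the last pair of histidine codons 3 codons apart, the spacing of a C2H2 finger. Klf7 probe 1 lies at chr1:64082265-64082324 on the minus strand, its capitals stand 1 codon before an in-frame stop codon that starts at base 36, and Klf13 probe 3 lies at chr7:71082854-71082913 on the minus strand and is open throughout that frame. Klf3 probe 1 is shown with no capitals since it spans 581 bases of the genome, chr5:65213568-65214148 on the plus strand, and so crosses an intron and reads spliced RNA.
Klf7 probe 1: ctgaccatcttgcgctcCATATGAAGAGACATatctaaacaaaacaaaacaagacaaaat
Klf13 probe 3: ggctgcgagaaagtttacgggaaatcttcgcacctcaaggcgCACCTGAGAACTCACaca
Klf3 probe 1: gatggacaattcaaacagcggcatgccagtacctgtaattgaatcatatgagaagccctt

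Klf7, a close relative of Klf6, was the member closest to the 2-fold limit in WT, and with the offset of 50 its change of -0.91 was within it. Probe 1 read 276 (WT) and 167 (Nr4a-TKO) in naive T, and 153 (WT) and 126 (Nr4a-TKO) at 3 h. WT naive T was the highest array with every probe, and with probes 1 and 2 the remaining 3 arrays lay closer together. With probe 3 the log2 levels were 0.835 (WT) and 0.513 (Nr4a-TKO) in naive T, and -0.018 (WT) and -0.074 (Nr4a-TKO) at 3 h. The log2 difference with culture was -1.04, -1.34 and -0.85 in WT with probes 1, 2 and 3, and -0.56, -0.57 and -0.59 in Nr4a-TKO, each ± 0.21. Naive T cells had less Klf7 in Nr4a-TKO with all 3 probes (-0.69, -0.74 and -0.32), whereas at 3 h the differences of -0.21, 0.04 and -0.06 were about as large as the error or smaller.

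Klf13, which activates Ccl5 in T cells, read 1829 (WT) and 1346 (Nr4a-TKO) in naive T, and 635 (WT) and 501 (Nr4a-TKO) at 3 h with probe 1. The coordinates of this probe run on the plus strand of chromosome 7 (chr7:71032482-71032541 on mm9), while those of the other 2 probes and of the RefSeq promoter run on the minus strand, so which transcript it reads is not settled. Probe 2, which spans 32932 bases of the genome and thus crosses an intron, read 280, 309, 156 and 134 in the same order of arrays. Probe 3 in the zinc finger region read 58.6, 54.2, 25.3 and 26.0. With each probe both naive arrays were above both 3 h arrays, by log2 differences of -1.71, -1.03 and -1.40 in WT and -1.58, -1.36 and -1.21 in Nr4a-TKO. The probes differed in sign between the genotypes in naive T (-0.40, 0.19 and -0.07) and at 3 h (-0.27, -0.15 and 0.12).

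Klf10, named for its early induction by TGF-β and known as a repressor in the TGF-β pathway, was the member whose brightest probe was higher after culture in both genotypes. Probe 1 read 70.8 (WT) and 86.3 (Nr4a-TKO) in naive T, and 272 (WT) and 374 (Nr4a-TKO) at 3 h. Both 3 h arrays were above both naive arrays, and Nr4a-TKO was the higher genotype at each stage. The log2 difference with culture was 1.76 ± 0.21 in WT, 3.38-fold, and 1.96 ± 0.21 in Nr4a-TKO, 3.89-fold. The genotype difference was 0.33 ± 0.21 in naive T and 0.53 ± 0.20 at 3 h. Probe 2, designed on another Klf10 transcript, was well above background only on the Nr4a-TKO array at 3 h, at a signal of 7.05 close to the floor of 5.79. Among the 22649 genes well above background on all arrays, those whose profile over the 4 arrays was most like that of Klf10 were Chrne, Trmt5 and Ppp1r16b, with root mean square differences of 0.05, 0.06 and 0.09 from its centred log2 levels. For Klf4, the member with the largest decrease in WT, they were the transcript ENSMUST00000138143, Gm11346 and the acetyltransferase gene Kat2b, at 0.11, 0.13 and 0.14.

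Klf9, a member known for its induction by glucocorticoid and thyroid hormone, was dim on the arrays and gave the widest contrast between the genotypes. Probe 1 read 1.70 (WT, not above background) and 19.9 (Nr4a-TKO) in naive T, and 53.5 (WT) and 18.9 (Nr4a-TKO) at 3 h. The WT arrays were thus the lowest and the highest, with the Nr4a-TKO arrays level between them. Probe 2 read 1.60 and 5.29 on the naive arrays, neither above background, and 47.6 and 19.5 at 3 h. In WT, Klf9 was at least 6.94-fold higher after culture with probe 1 and at least 6.18-fold with probe 2. In Nr4a-TKO the probes disagreed, probe 1 at -0.23 ± 0.31 and probe 2 at least 2.74-fold higher. At 3 h both had less Klf9 in Nr4a-TKO, by log2 differences of -1.43 ± 0.24 and -1.21 ± 0.23. Among naive T cells only probe 1 measured a difference, at least 3.02-fold higher in Nr4a-TKO, and probe 2 gave none. The difference between the changes of the genotypes was -3.02 with probe 1, where only the WT change is a limit. With probe 2 it was -1.18, but there both changes are limits, so it is neither a value nor a limit. With the offset of 50 the 3 h difference of probe 1 was -0.45 and the WT change was 0.79, so no Klf9 difference passed 2-fold there.

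Between the genotypes as a whole, few members passed 2-fold. In naive T, 1 member was higher in Nr4a-TKO (Klf9) and 0 were lower, where 2.75% of 26461 genes were higher and 2.57% lower, and the median over the members was -0.24 against -0.01 over all genes. At 3 h, 1 was higher (Klf4) and 1 lower (Klf9), where 2.76% of 26879 genes were higher and 2.64% lower, with medians of -0.11 and 0.02. Of the probes with a value, 4 of 14 were above 0 and 10 below in naive T, and 6 of 16 were above and 10 below at 3 h. Each genotype comparison shares its arrays with the culture comparisons, so they are no separate evidence. Markers of other cell types or states differed between the genotypes as well. Of the 4 regulatory T cell markers, Foxp3 and Ikzf2 were lower in Nr4a-TKO naive T by -1.34 and -1.47. Ctla4 stood there at 0.82 and Il2ra at -0.03, or at -0.63 with its other probe. Summed signals of the list were 914 in WT and 790 in Nr4a-TKO. Of the 4 memory T cell markers, S100a4 was lower by -2.11 and Id2 higher by 1.03 in naive T (summed signals 1527 in WT and 1797 in Nr4a-TKO), and at 3 h Cd44 was 3.13-fold higher in Nr4a-TKO and Il2rb stood at 0.77 (1637 and 2967). Of the 5 B cell markers, all 5 had values above 0 for Nr4a-TKO minus WT at 3 h, Cd79a with 1.22 (538 and 678). Of the 8 myeloid markers, Cd14 was lower by -3.19 in naive T and at least 2.41-fold higher at 3 h (summed signals from 37260 to 40260 over the 4 arrays, 5 to 7 of the 8 above background). Most of that sum was 1 Itgam probe, with signals from 34730 to 37380. The part of all these markers in the KLF values was not tested.

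**Figure D3:**
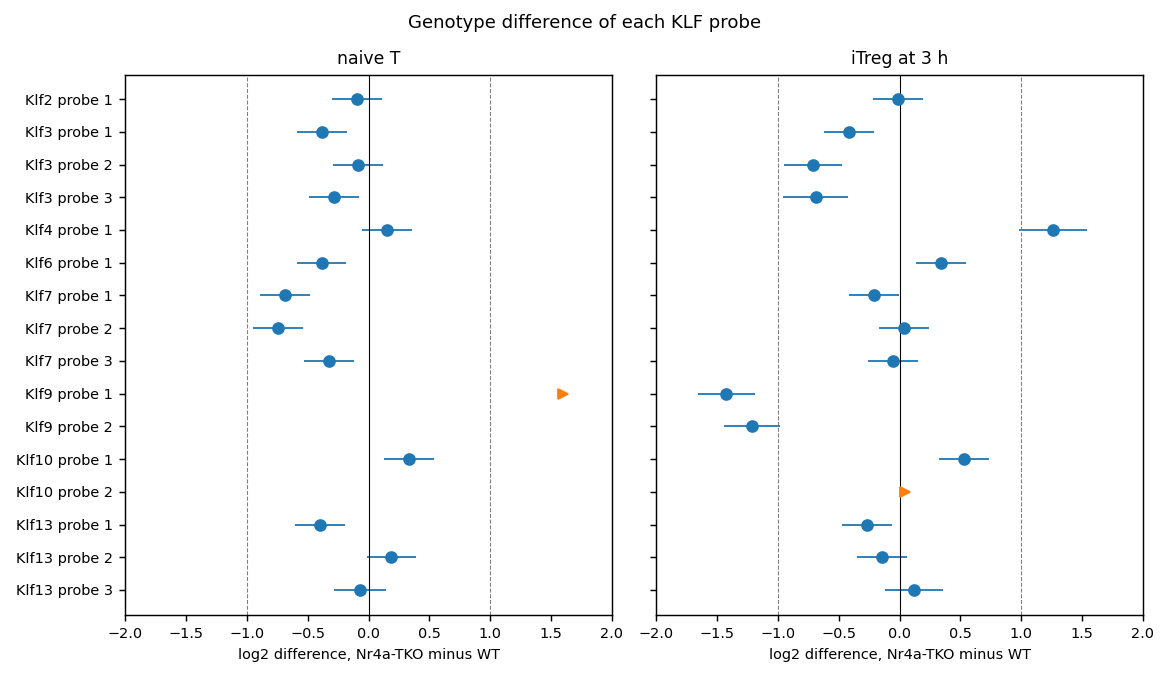
Log2 difference of Nr4a-TKO minus WT for each of the 16 probes, in naive T (left) and in iTreg at 3 h (right), with the scanner software's error as bars and dashed lines at 2-fold; orange triangles are lower limits, and a missing point means that neither array was well above background. At 3 h Klf4 lies past the line at 2-fold higher and both Klf9 probes past the line at 2-fold lower, and the remaining probes lie between the lines.

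Most of the other KLF and Sp family genes were within 2-fold between the stages. Of 18 on the array, 14 had a difference in WT, of which 2 were more than 2-fold higher and 0 lower, with a median of -0.01. In Nr4a-TKO 13 had one, 1 higher and 1 lower, with a median of -0.26. Klf16, a repressor related to Klf13, read 125 (WT) and 91.3 (Nr4a-TKO) in naive T, and 507 (WT) and 322 (Nr4a-TKO) at 3 h, and was 3.57-fold and 3.16-fold higher after culture in WT and Nr4a-TKO. Klf14 was above background only in WT iTreg at 3 h, at 34.6, at least 4.50-fold above WT naive T. Klf8, a repressor, was at 16.2 in Nr4a-TKO naive T and not above background after culture there, at least 3.11-fold lower. Klf5, Klf15, Klf17 and Sp8 were above background on no array.

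Of 9 genes known to depend on KLF2 in T cells, 8 had a difference in WT, all 8 below 0 and 5 of them more than 2-fold lower, with a median of -2.57. In Nr4a-TKO 5 of 9 were more than 2-fold lower and 1 was higher, with a median of -2.00. S1pr1, the receptor that guides T cells out of lymphoid organs, read 1081 (WT) and 1002 (Nr4a-TKO) in naive T, and 68.9 (WT) and 82.4 (Nr4a-TKO) at 3 h, a change of -4.16 in WT and -3.76 in Nr4a-TKO. Itgb7, an integrin chain of gut homing, changed by -3.54 and -3.66, and S1pr4 by -3.50 and -2.22. Il7r, the receptor chain for the survival cytokine IL-7, changed by -2.86 and -2.65, and Il6ra by -2.28 and -2.00. The homing receptor gene Ccr7 gave differences of -0.20 and -0.99 for WT and Nr4a-TKO between the stages with its brightest probe, and -0.18 and -1.14 with the other, which alone passed 2-fold in Nr4a-TKO. For Cxcr3, which rises in T cells that lack KLF2, the difference was -0.40 in WT but 2.18 in Nr4a-TKO, and at 3 h it was 3.50-fold higher in Nr4a-TKO. Between the genotypes no other gene of this list passed 2-fold at either stage.

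**Figure D4:**
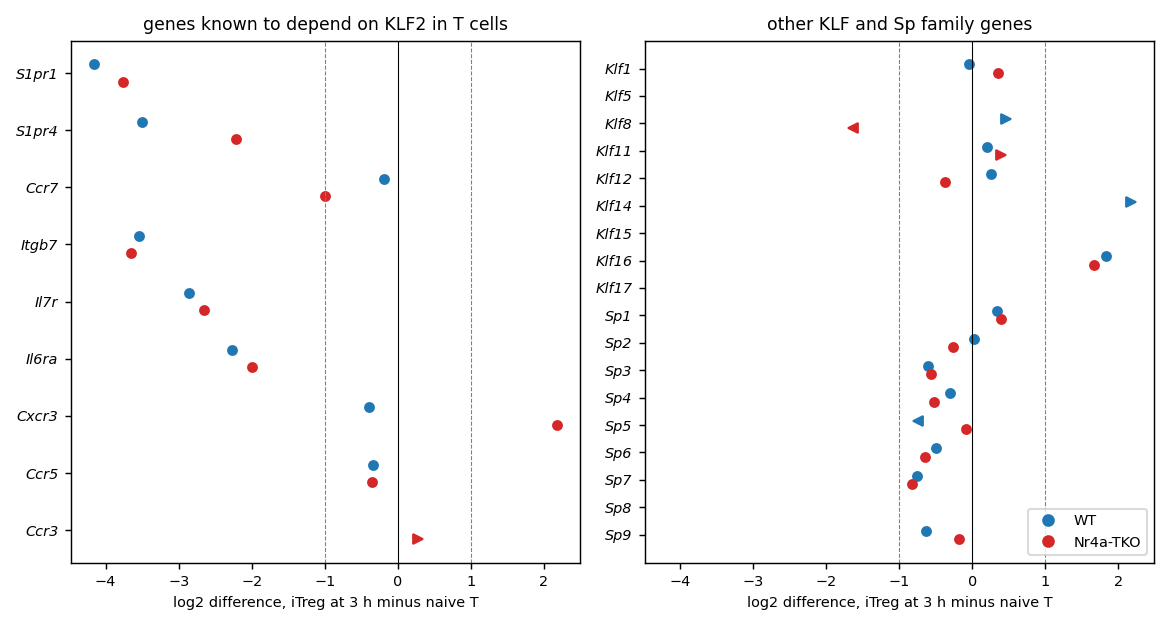
Log2 difference between iTreg at 3 h and naive T in WT (blue) and Nr4a-TKO (red) for genes known to depend on KLF2 (left) and for the other KLF and Sp family genes (right), with dashed lines at 2-fold and triangles for limits; a missing point was not measured. S1pr1, S1pr4, Itgb7, Il7r and Il6ra lie to the left of the line in both genotypes, whereas most of the other family members lie between the lines.

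Of 15 known regulators of the KLF2 level, all measured, 4 were more than 2-fold lower in WT after culture and 0 in Nr4a-TKO, and none was higher. These counts hold for brightest probes. Other probes of Foxo1 (-1.05), Map3k3 (-1.29) and Cyld (-1.10 to -1.26), among others, passed 2-fold in Nr4a-TKO too. Foxo1, a transcriptional activator of Klf2, read 658 (WT) and 536 (Nr4a-TKO) in naive T, and 245 (WT) and 323 (Nr4a-TKO) at 3 h, a change of -1.61 in WT and -0.88 in Nr4a-TKO. Map3k3, a kinase upstream of ERK5, changed by -1.19 and -0.58, the deubiquitinase gene Cyld by -1.09 and -0.84, and the activator gene Mef2c by -1.04 and -0.07. Mef2c was 3.10-fold higher in Nr4a-TKO at 3 h with its brightest probe, with signals of 21.9 in WT and 64.4 in Nr4a-TKO. Another Mef2c probe gave a WT change of -0.28 and a genotype difference of 1.165 at 3 h. A further one gave 0.41 at 3 h. Of 13 KLF co-regulators, 1 was more than 2-fold lower in each genotype by its brightest probe, the acetyltransferase gene Kat2b (-3.04 in WT and -2.02 in Nr4a-TKO), and it was 2.60-fold higher in Nr4a-TKO at 3 h. The brightest probe of Ep300 gave -0.54 in WT and -0.65 in Nr4a-TKO. Another Ep300 probe gave -1.60 and -1.35, and a further one -1.23 and 0.19. Wdr5, a subunit of histone methyltransferase complexes, was higher by 1.30 and 1.40, and the deacetylase gene Hdac2 by 0.98 and 1.19.

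Of 11 genes of the TGF-β pathway linked to KLF10 and KLF11, 3 were more than 2-fold higher and 1 was lower in each genotype. Tgfbr1, the type I receptor, read 153 (WT) and 200.3 (Nr4a-TKO) in naive T, and 540 (WT) and 2276 (Nr4a-TKO) at 3 h, 3.10-fold higher after culture in WT and 10.2-fold in Nr4a-TKO with its brightest probe. Tgfbr2, the type II receptor, changed by -1.92 and -1.69. The ligand Tgfb1 was higher by 1.57 and 1.69, and Skil, a repressor of SMAD signaling, by 1.11 and 1.66. Smad7, an inhibitor of the pathway, differed between the genotypes at 3 h, 2.30-fold higher in Nr4a-TKO, and Foxp3 was 2.78-fold lower there. Of 12 quiescence and growth arrest genes linked to KLF members, 5 were higher and 3 lower in WT, and 4 and 3 in Nr4a-TKO. Cdkn1b, an inhibitor of the cell cycle, changed by -3.11 and -2.40, and Ccl5, a known target of Klf13, by -2.16 and -1.98. The survival gene Bcl2l1 was higher by 3.66 and 4.28 and Myc by 2.51 and 2.04. Cdkn1a, an inhibitor of the cell cycle induced by several KLFs, was at least 6.57-fold and at least 13.5-fold higher. Cdkn1c, of the same family, was 2.11-fold higher in WT and at least 3.16-fold in Nr4a-TKO.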

How the data were processed

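Sorted naive T cells and cells at 3 h of iTreg culture were profiled on Agilent SurePrint G3 Mouse 8x60K arrays, 1 per group, on 1 slide with Cy3. The authors deposited the scanner output of Agilent Feature Extraction 11.5.1.1, whose processed signal is a background-subtracted intensity in linear units with its own error and flags, and a value table of log2 values. The study's methods name RMA, but the deposited log2 values equal, within 0.02 for 100.0% of probes, the log2 processed signal minus the array's 75th percentile, and that scale was used here. Control spots and the 115 to 160 outlier spots per array were left out, and spots of 1 probe were averaged. Dim probes, those the software did not call well above background, were set to the lowest value among the probes it did call on that array (signals of 5.79 to 6.78), which makes a difference a limit. Gene names and mm9 positions are those of the files. Each gene was read by its brightest probe over the 4 arrays.

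With 1 array per group no test across arrays was possible, and the number of arrays limits the precision. A difference of more than 2-fold was counted. Errors came from probes spotted at least 5 times and from the deposited intensity errors. The script was tested on simulated data. Named genes were the 8 members, the targeted genes, S1pr1, Ccr7, Foxo1, the 3 genes most like the members with the largest rise and fall, and up to 6 genes past 2-fold from each list. 1 item of the lists is not reported here and was left out of their counts. For the largest rise, Klf9 was passed over since its WT change is a limit. The members and lists were chosen with earlier results of these data known. Alternatives were normexp background correction (limma 3.58.1 in R 4.3.3) with an offset of 0 or 50 and quantile normalization, the deposited table, the mean of all probes, no floor, a strict filter and folds of 1.5 and 3. Python 3.11.15 was used with pandas 2.3.3. Promoters came from RefSeq, whose build differs from mm9, so no probe was placed on them.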

Additional observations from a re-analysis of the deposited data

Results flagged for a closer look

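Klf6 and Klf9 had differences of opposite sign in the groups compared. The Klf6 level was lower in Nr4a-TKO than in WT among naive T cells, by a log2 difference of -0.39, and higher at 3 h of iTreg culture, by 0.34, with a scanner error of 0.20 on each. The brightest Klf9 probe changed by at least 2.80 between naive T and iTreg at 3 h in WT, against -0.23 in Nr4a-TKO. The same probe was higher in Nr4a-TKO than in WT by at least 1.60 among naive T cells and lower by -1.43 at 3 h, while the second Klf9 probe gave -1.21 at 3 h and no value in naive T. With 1 array per group these differences between stages and between genotypes were not tested.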

How the results depend on the processing

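Each count was recomputed under 8 alternatives and each median under the 6 that can change it, and none changed the sign of a member that was past 2-fold. With normexp at an offset of 0 and quantile normalization, the median over the members was -2.30 in WT and -1.85 in Nr4a-TKO between naive T and 3 h. With an offset of 50 these medians were -1.58 and -1.40, the members more than 2-fold higher in WT were 1 (Klf10) and those lower were 5, Klf7 being lost, and 0 members were higher in Nr4a-TKO in naive T and 0 higher and 0 lower at 3 h. With the mean of all probes the medians were -1.96 in WT, -1.60 in Nr4a-TKO, -0.09 for the genotypes in naive T and -0.04 at 3 h. When only probes above background on both arrays were kept, Klf9 had no value in WT naive T, which left 7 members, 1 higher in WT with a median of -2.54, and 0 higher in Nr4a-TKO naive T with a median of -0.38. At 1.5-fold, 1 member was lower in Nr4a-TKO naive T (Klf7), and at 3-fold Klf7 was no longer counted in WT and 0 were higher and 0 lower in Nr4a-TKO at 3 h. The deposited table moved none of these. With the mean of both probes Klf9 changed by 0.61 in Nr4a-TKO, where the brightest probe gave -0.23. Signal over background limits Klf9, Klf14 and Klf10 probe 2, which were dim on 1 or more arrays. No paired analysis was possible because each group has 1 array, and for the same reason no array could be left out.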

Other observations

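Genes of early T cell activation were mostly higher in both 3 h cultures. Of 14 such genes, 10 were more than 2-fold higher after culture in each genotype, 2 were lower in WT (Fos and Fosb, named after their values were seen) and 1 in Nr4a-TKO (Fos). The other Fosb probe was within 2-fold, at -0.34 in WT and -0.83 in Nr4a-TKO. The brightest probe of Il2ra was within 2-fold (0.53 in WT and 0.62 in Nr4a-TKO), but its other probe gave 5.56 and 6.18. Irf4, a transcription factor that follows the strength of TCR signaling, read 59.6 (WT) and 144 (Nr4a-TKO) in naive T, and 6330 (WT) and 6863 (Nr4a-TKO) at 3 h. The activation marker Cd69 was higher by 3.47 on the log2 scale in WT and by 3.92 in Nr4a-TKO, and the cytokine gene Tnf by 3.05 and 3.21. The log2 change of Il2 was at least 4.27 for WT cells and 4.83 for Nr4a-TKO cells, and that of the costimulatory receptor gene Tnfrsf4 was 3.22 and 3.84. Tnfrsf9, another costimulatory receptor gene, was lower in Nr4a-TKO by -2.15 in naive T and by -3.78 at 3 h with its brightest probe. Its other probe gave -0.60 in naive T, within 2-fold, and -3.30 at 3 h.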
